A study of Homo sapiens with 6 samples.

Results

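The genes described here are 10 transcription factor and response genes: the AP-1 genes FOS, FOSL1, FOSL2, JUN, JUNB and JUND, the immediate early genes EGR1 and IER2, the stress factor gene ATF3, and MYC. They were chosen by name, and all 10 were found among the 23368 genes of the table. All 10 also passed the filter on low counts, which left 14598 genes for testing. Immediate early genes are switched on within minutes of a growth factor, serum or stress signal without the need for new protein synthesis, and their transcripts decay quickly. FOS and JUN proteins pair through leucine zippers into the AP-1 factor, and MYC pairs with MAX to act on genes of growth and ribosome production. In liver, several of these genes are induced early in regeneration and by culture stress.

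RNA was sequenced from HepG2, an established human liver cancer line. The 3 shCHROME libraries, lettered a to c, came from cells that stably carried a short hairpin RNA directed at all variants of the long noncoding RNA CHROME, and the titles name 1 construct, SH3. The 3 EV libraries, lettered in the same way, came from cells with a non-targeting hairpin. Both hairpins were delivered by lentivirus from the same pLKO vector backbone, packaged in HEK293T cells, an embryonic kidney line. The labels give no time between transduction or the last medium change and RNA isolation, nor do they say whether replicates were grown separately. The p-values therefore reflect only how far these libraries differ, and that spread could be technical. CHROME itself was not analysed here, so no value for the extent of its knockdown stands beside these results.

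Values below are normalized counts, that is, reads per gene divided by a size factor for each library, as deposited. Recovered read totals were 29477352 to 33911426 in shCHROME libraries and 29188213 to 35429420 in EV libraries. With limma, 10.5% of the genes tested passed an adjusted p of 0.05, 3.64% being higher and 6.87% lower in shCHROME (532 and 1003 genes, against 936 and 702 when libraries were scaled to their totals). All 10 listed hepatocyte markers were measured, 6 of them were lower in shCHROME, and their summed level was 1226166.0 to 1426681.6 in shCHROME libraries and 1519814.7 to 1639452.5 in EV libraries. AFP, the fetal albumin-like protein, was lowest relative to EV among them, at 1.83-fold lower. Of 9 markers of embryonic kidney and packaging cells, 3 were tested and L1CAM and CDH2 were lower, with sums of 3798.5 to 4004.2 in shCHROME and 4516.5 to 4895.7 in EV, and NEFL and NEFM at 0. Of 6 blood markers 3 were tested and LYZ was higher, with CD3E and HBB at 0. Blood marker sums were 5587.1 to 7104.2 in shCHROME and 5118.7 to 5176.6 in EV. Most of each sum was LYZ, at 5150.8 to 6769.8 in shCHROME and 4715.8 to 4822.1 in EV. Of 5 endothelial markers 3 were tested and none was called, with TEK at 0. Endothelial marker sums were 928.4 to 1007.0 in shCHROME and 1055.8 to 1100.6 in EV. Most of each sum was VWF, at 871.4 to 939.8 in shCHROME and 1000.1 to 1037.5 in EV. Of 7 fibroblast and stellate markers 2 were tested, with DCN at 0. PDGFRB was lower, while the other tested marker had a log2 fold change above 0 and was not called. Fibroblast and stellate marker sums were 1454.3 to 1725.5 in shCHROME and 1591.4 to 1800.2 in EV. PDGFRB was the smaller part of each sum, at 165.4 to 232.6 in shCHROME and 335.5 to 450.1 in EV. The part of these markers in the results below was not tested. All libraries came from the HepG2 line, so the markers are read as genes and not as shares of cell types. In bulk RNA, fewer cells expressing a gene and less RNA per cell cannot be told apart.

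Of the 10 genes, FOSL2 and IER2 were lower in shCHROME cells and the other 8 did not pass the test. FOSL2 fell 1.35-fold and IER2 1.19-fold. No gene of the 10 was higher. The calls numbered 2 of 10, beside 6.87% of all genes tested that were lower. The same 2 were lower by edgeR's quasi-likelihood test and by DESeq2 on recovered reads. There edgeR called 10.6% of all genes (3.69% higher and 6.95% lower) and DESeq2 11.9% (4.2% higher and 7.72% lower). Over all 16 alternative settings FOSL2 kept its call throughout, while IER2 lost its call in 8. The median log2 fold change of the 10 was -0.09, with a range of -0.44 to 0.10, and that of all genes tested was 0.01. Values below 0 were found for 7 of the 10 and for 47.8% of all genes tested; with libraries scaled to their totals, 5 of the 10 were below 0.

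**Figure D1:**
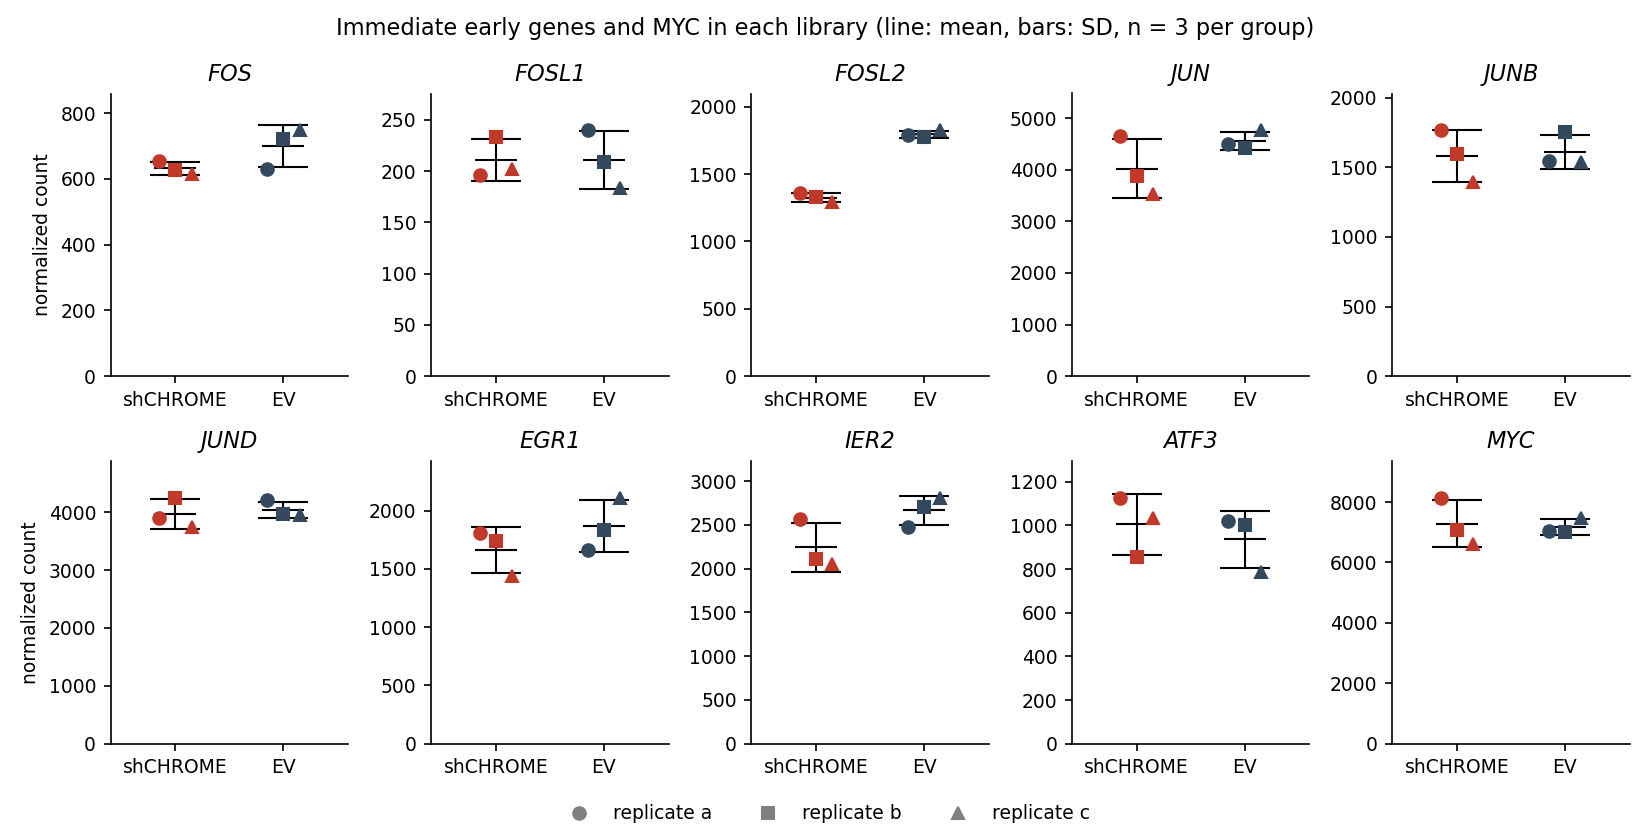
Normalized counts (vertical axes, each from 0) of the 10 genes in the 3 shCHROME libraries and the 3 EV libraries, with replicates a, b and c as circles, squares and triangles. Lines give the mean and bars the SD. FOSL2 is the gene whose groups are apart, with shCHROME libraries at 1290.4 to 1359.0 and EV libraries at 1773.3 to 1825.1.

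FOSL2 (ENSG00000075426, chromosome 2) encodes Fra-2, a FOS-family partner of JUN proteins that lacks the strong activation domain of FOS. It had 1359.0, 1328.5 and 1290.4 normalized counts in shCHROME replicates a, b and c, against 1789.5, 1773.3 and 1825.1 in EV replicates a, b and c. Every shCHROME library was below every EV library, and the libraries of a group lay close together. Groups that did not overlap were found in 28% of all genes tested, 13% with shCHROME higher and 15% with it lower. Means were 1326.0 ± 34.4 in shCHROME and 1796.0 ± 26.5 in EV (SD, n = 3 each). FOSL2 fell by 26.2%, with a 95% interval from -32.8% to -18.9%, and a log2 fold change of -0.44 ± 0.0644 (SE, limma adjusted p = 0.000232). The call held in all 16 alternative settings, with log2 fold changes from -0.46 to -0.39 and adjusted p from 3.91e-08 to 0.00348. A pair of genes overlaps the span of FOSL2 in GENCODE release 29, the antisense gene FLJ31356 and the intronic gene AC104695.3 on the same strand. The sources do not say whether counting used strand, which bears on FLJ31356 and not on AC104695.3. Whether either gene shares exon bases with FOSL2 was not examined, so inclusion of their reads is not known.

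IER2 (ENSG00000160888, chromosome 19), a nuclear protein gene induced by serum, had 2563.0, 2108.1 and 2056.8 normalized counts in shCHROME replicates a, b and c, against 2479.6, 2708.4 and 2808.9 in the EV replicates. shCHROME replicate a lay within the range of the EV libraries, so the groups overlapped. IER2 averaged 2242.6 ± 279 in shCHROME and 2665.6 ± 169 in EV (SD, n = 3 each). It fell by 16.2% (95% interval from -25.3% to -5.97%), with a log2 fold change of -0.25 ± 0.0788 (SE) and a limma adjusted p of 0.0459. This call was lost in 8 of 16 alternatives. Adjusted p was 0.141 without shCHROME replicate b, 0.228 without shCHROME replicate c, 0.106 without EV replicate b and 0.178 without EV replicate c. It was 0.0949 with library totals, 0.0569 with upper quartile scaling and 0.0599 with no filter beyond 1 read. The lowest adjusted p, 0.00173, came without shCHROME replicate a. The antisense gene AC011446.2 overlaps the span of IER2 and its reads may be included, though shared exon bases were not examined.

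The sequences before the transcription starts of these called genes are shown, together with a stretch before EGR1, where the binding motif of serum response factor is known to act. They come from RefSeq on GRCh38.p14, a later build than the hg19 used for counting, and 8 of the 10 genes had an entry. The FOSL2 stretch, which stops before an annotated exon, is chr2:28392608-28392801, the IER2 stretch chr19:13150161-13150410 and the EGR1 stretch chr5:138465369-138465428, all on the plus strand. Capitals mark GGGCGG on either strand, the core bound by Sp1, in FOSL2 and IER2, and the CArG box, the core bound by serum response factor, in EGR1.
FOSL2: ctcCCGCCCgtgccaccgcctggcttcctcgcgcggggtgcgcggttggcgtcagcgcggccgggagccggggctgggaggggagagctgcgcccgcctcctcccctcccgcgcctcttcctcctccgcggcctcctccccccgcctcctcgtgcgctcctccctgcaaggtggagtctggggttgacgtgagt
IER2: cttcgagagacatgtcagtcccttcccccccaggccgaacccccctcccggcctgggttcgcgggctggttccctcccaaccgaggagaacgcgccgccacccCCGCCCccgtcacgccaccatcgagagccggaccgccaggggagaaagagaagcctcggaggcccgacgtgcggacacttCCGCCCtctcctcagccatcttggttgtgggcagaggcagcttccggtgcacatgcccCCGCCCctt
EGR1: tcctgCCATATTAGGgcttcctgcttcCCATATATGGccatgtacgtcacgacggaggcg

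In the 250 bases before each start, GGGCGG stood once before FOSL2 and 3 times before IER2, and was present in 42.6% of 35116 promoters of that length. It also stood before FOS, JUN, JUND and ATF3, none of which was called. The CArG box stood before EGR1 at 105 to 96 and at 83 to 74 bases upstream, and 1.16% of all promoters held one. TGACGTCA, the cyclic AMP response element, stood before JUND and in 1.65% of all promoters. The AP-1 motif TGACTCA (4.2% of all promoters) and the E-box CACGTG bound by MYC and MAX (6.34%) were in none of the windows of these 8 genes. All motifs were searched on both strands and none of these matches overlapped another. A match describes letters in this window only.

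Among the other FOS-family genes, FOS (ENSG00000170345, chromosome 14), whose protein is the classic partner of JUN, had 653.8, 626.5 and 616.5 normalized counts in shCHROME, against 628.8, 723.0 and 747.8 in EV. EV replicate a fell among the shCHROME libraries, and the groups overlapped. Its log2 fold change was -0.14 (95% interval -0.33 to 0.04, limma adjusted p = 0.345). FOSL1 (ENSG00000175592, chromosome 11), which encodes Fra-1, had 196.1, 233.7 and 202.0 normalized counts in shCHROME, against 239.7, 209.3 and 183.2 in EV, and the groups overlapped throughout. FOSL1 had the fewest reads of the 10, between 184 and 229 a library, and the widest interval, -0.28 to 0.28 around a log2 fold change of 0.0033 (limma adjusted p = 0.992).

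JUN (ENSG00000177606, chromosome 1), the core AP-1 subunit, had 4661.7, 3880.1 and 3528.0 normalized counts in shCHROME, against 4494.3, 4419.6 and 4763.4 in EV. shCHROME replicate a was level with the EV libraries while replicates b and c were below all of them. The log2 fold change of JUN was -0.19 (95% interval -0.35 to -0.02), and it did not pass the test (limma adjusted p = 0.142). Without shCHROME replicate a it was -0.30 with an adjusted p of 0.00351, and over all alternatives adjusted p ran up to 0.546. JUNB (ENSG00000171223, chromosome 19), a JUN-family member that can oppose JUN, had 1765.3, 1593.2 and 1392.5 normalized counts in shCHROME, against 1544.2, 1751.4 and 1540.3 in EV. JUND (ENSG00000130522, chromosome 19), the family member least dependent on stimulation, had 3896.8, 4246.1 and 3744.8 in shCHROME, against 4202.2, 3969.9 and 3946.9 in EV. Both sets of groups overlapped. JUNB and JUND each had a log2 fold change of -0.03, with intervals of -0.20 to 0.15 and -0.16 to 0.10 (limma adjusted p = 0.88 and 0.829), and each was 0.02 when libraries were scaled to their totals. HOOK2, on the strand opposite JUNB, overlaps it and had 1747 reads in shCHROME and 1584 in EV, beside 4741 in shCHROME and 4848 in EV for JUNB.

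EGR1 (ENSG00000120738, chromosome 5), a zinc finger factor under serum response factor, had 1805.5, 1739.0 and 1439.2 normalized counts in shCHROME, against 1660.1, 1830.9 and 2108.9 in EV. EV replicate c was the highest and shCHROME replicate c the lowest, and the other 4 libraries were intermixed. Its log2 fold change was -0.17 (95% interval -0.36 to 0.02, limma adjusted p = 0.273). ATF3 (ENSG00000162772, chromosome 1), a factor of the stress response that also pairs with JUN proteins, had 1126.4, 854.0 and 1034.3 normalized counts in shCHROME, against 1022.4, 1000.9 and 786.6 in EV. The lowest 2 values came from 1 library of each group. Its log2 fold change was 0.10 (95% interval -0.12 to 0.33, limma adjusted p = 0.616), and it was -0.02 without EV replicate c.

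MYC (ENSG00000136997, chromosome 8) had 8137.3, 7079.0 and 6626.5 normalized counts in shCHROME, against 7027.5, 7020.2 and 7472.7 in EV. The shCHROME libraries spanned the whole range of the EV libraries. MYC averaged 7280.9 ± 775 in shCHROME and 7173.4 ± 259 in EV (SD, n = 3 each). Its log2 fold change was 0.02 with a 95% interval of -0.12 to 0.16 (limma adjusted p = 0.921), which in linear terms runs from -8.29% to 11.6%. It was -0.07 without shCHROME replicate a.

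**Figure D2:**
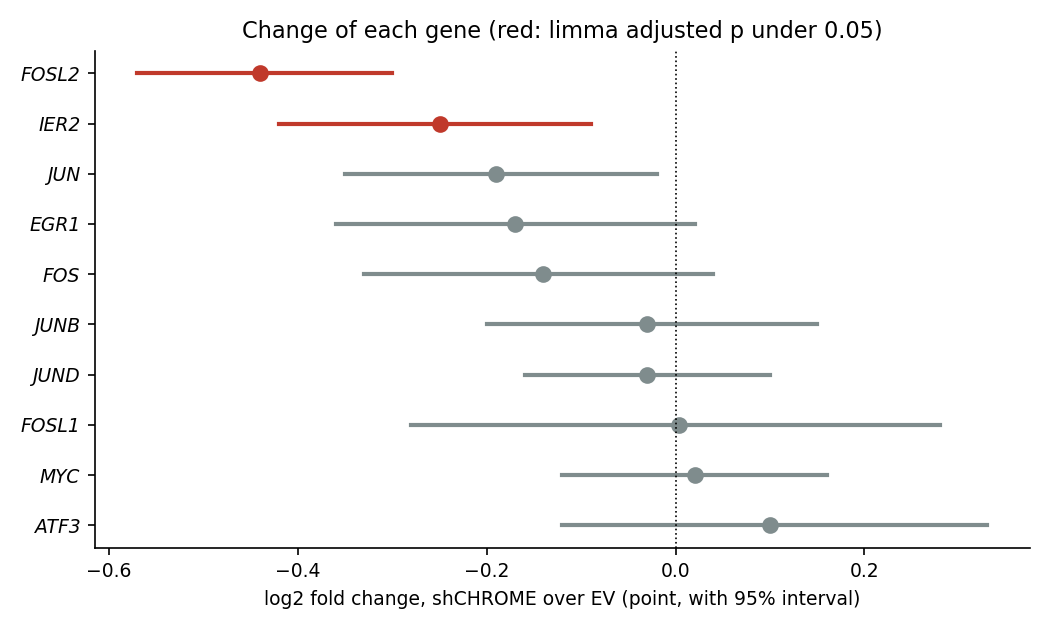
Log2 fold change of shCHROME over EV (horizontal axis) for each of the 10 genes, as a point with its 95% interval from limma; red marks an adjusted p under 0.05. FOSL2 at -0.44 and IER2 at -0.25 are marked, the interval of JUN (-0.35 to -0.02) also lies below 0, and the other 7 intervals span 0.

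The ratio of FOSL2 to each AP-1 relative within a library is given as a description, since FOSL2 was chosen for it after its values were seen. The log2 ratio of FOSL2 to FOS was 1.05, 1.08 and 1.06 in shCHROME, against 1.51, 1.29 and 1.29 in EV, a difference of -0.29. The ratio of FOSL2 to FOSL1 differed by -0.44, to JUN by -0.25, to JUNB by -0.41 and to JUND by -0.41. No test of these differences is given.

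Levels were compared between genes per kilobase of exon, using the union of exons in GENCODE release 29. MYC and JUND were the most abundant, at 2426.2 ± 258 and 2127.0 ± 138 normalized counts per kilobase in shCHROME and 2390.4 ± 86.4 and 2168.4 ± 75.8 in EV (SD, n = 3 each). Their ranges overlapped in shCHROME and not in EV. JUN, JUNB and IER2 followed, with JUNB and IER2 overlapping in both groups. EGR1 and ATF3 came next. At the low end, FOSL2 averaged 195.2 ± 5.06 per kilobase in shCHROME and 264.3 ± 3.90 in EV, and FOS 215.2 ± 6.57 in shCHROME and 238.2 ± 21.4 in EV. FOSL2 was below FOS in every shCHROME library and above it in every EV library. FOSL1 was the least abundant, at 114.5 ± 11 in shCHROME and 114.5 ± 15.4 in EV. As a percentage of the summed level of FOS, FOSL1 and FOSL2 per kilobase, FOSL2 made up 37.8%, 36.5% and 37.3% in shCHROME and 43.3%, 42.0% and 43.1% in EV. In the JUN family, JUND made up 51.6% ± 3.29 in shCHROME and 49.9% ± 1.42 in EV, JUN 27.4% ± 2.32 in shCHROME and 29.7% ± 1.35 in EV, and JUNB 21.0% ± 1.00 in shCHROME and 20.4% ± 1.53 in EV (SD, n = 3 each). Lengths depend on which transcripts a cell uses, so the order between neighbours may differ with another annotation.

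**Figure D3:**
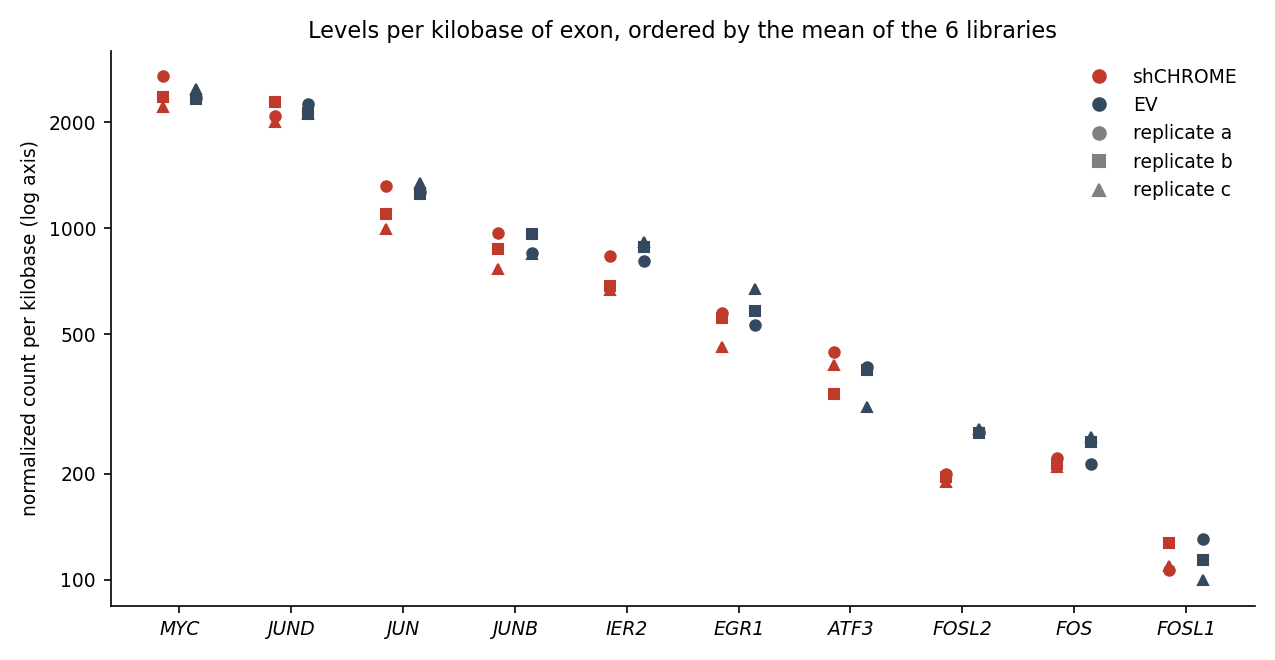
Normalized counts per kilobase of exon (vertical log axis) of the 10 genes, ordered by the mean of the 6 libraries, with shCHROME libraries in red left of EV libraries in dark blue; shapes mark replicates. MYC and JUND lie above the other genes in all 6 libraries, and FOSL2 lies at 189.9 to 200 in shCHROME and 261.0 to 268.6 in EV.

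The spread between libraries of a group is given as a description, with no test. Over 9847 genes with a mean of 200 to 10000, the median SD of log2 values was 0.0904 in shCHROME and 0.0722 in EV. Of the 10 genes, 8 were above that median in shCHROME and 6 in EV, and FOSL1, JUNB, EGR1, IER2 and ATF3 were above it in both groups. ATF3 had an SD of 0.204 in shCHROME, level with that of JUN, and of 0.21 in EV, where it was the most variable of the 10. FOSL2 had the smallest SD of the 10 in both groups, 0.0374 in shCHROME and 0.0212 in EV, and smaller SDs were found in 11.9% of these genes in shCHROME and 6.41% in EV. Within shCHROME the same libraries were high and low for most of the 10. Replicate a was the highest of the 3 for 8 of the 10 genes, beside 41.3% of those 9847 genes, and replicate c the lowest for 8, beside 29.6%. FOSL1 and JUND were the genes that did not have replicate a highest. In EV, replicate c was highest for 6 of the 10, FOS, FOSL2, JUN, EGR1, IER2 and MYC, beside 32.4%. It was the lowest for the other 4, FOSL1, JUNB, JUND and ATF3, beside 32.1%.

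**Figure D4:**
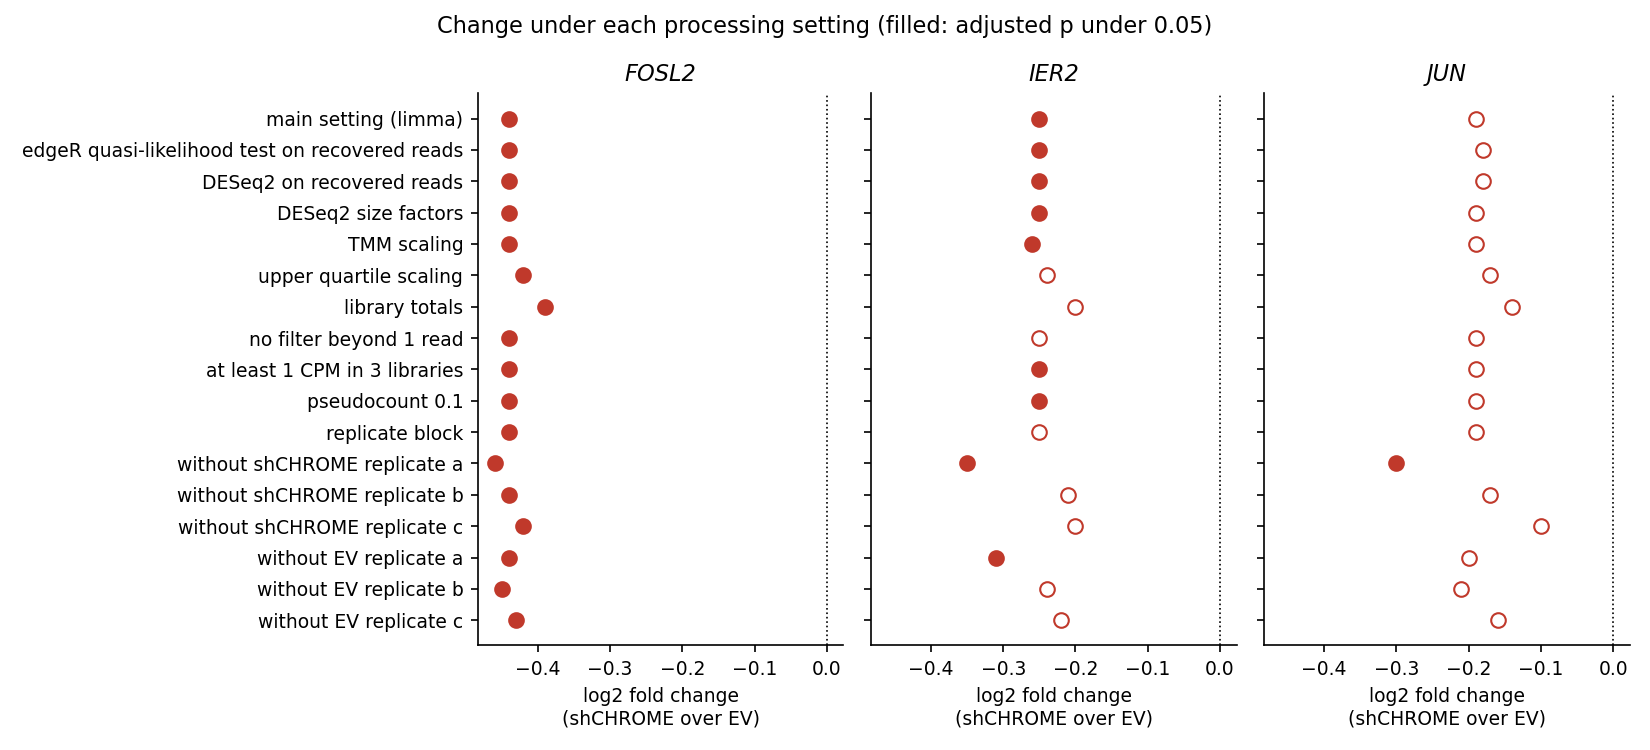
Log2 fold change of shCHROME over EV (horizontal axes) for FOSL2, IER2 and JUN under limma as reported and under 16 other settings (rows); filled points have an adjusted p under 0.05. FOSL2 is filled in every row, IER2 in 9 of 17 and JUN only without shCHROME replicate a.

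In the authors' deposited table, FOSL2 had a log2 fold change of -0.39 and an adjusted p of 0.000146, and IER2 -0.22 and 0.0555, so that FOSL2 alone of the 10 passed 0.05. Of all genes with an adjusted p in the authors' deposited table, 9.04% passed, of which 3.02% were higher and 6.02% lower as shares of all. The other 8 genes had adjusted p of 0.354 or more in the authors' deposited table, where JUN was at -0.16, FOS at -0.13, EGR1 at -0.10 and MYC at 0.02.

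The genes whose profile over the 6 libraries was most like that of FOSL2 were HERPUD1, a gene of protein quality control in the endoplasmic reticulum, FAM129B and RGS3, a regulator of G-protein signalling. They were the nearest 3 of 12315 genes by the root mean square difference of centred log2 values, at 0.038, 0.042 and 0.043. HERPUD1 averaged 5096.3 ± 123 in shCHROME and 6758.1 ± 166 in EV, FAM129B 2112.7 ± 141 in shCHROME and 2935.5 ± 33.9 in EV, and RGS3 691.6 ± 22.4 in shCHROME and 922.7 ± 47.0 in EV (SD, n = 3 each). Nearest to IER2 were ZNF697 (0.042), IGFBP1 (0.044), a secreted insulin-like growth factor binding protein abundant in liver cells, and LOC647979 (0.045). Nearest to JUN were ALG14 (0.031), TRIM23 and OSTM1 (0.058 each). Likeness over 6 libraries rests on few values, and for FOSL2 also on the group difference shared with its nearest 3 genes, all called lower. Among the genes nearest to IER2 only LOC647979 was called, and of those nearest to JUN none was.

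Genes around these 10 were counted in 9 lists, beside the 10.5% of all genes tested that were called. The upstream growth factors and receptors had 7 of 17 tested genes called, 3 higher and 4 lower, with a median log2 fold change of -0.09. FGF2, a growth factor that signals through ERK, had 106.5, 74.44 and 94.6 normalized counts in shCHROME, against 21.18, 38.39 and 40.82 in EV, and rose 2.77-fold (limma adjusted p = 0.000942). The insulin-like growth factor gene IGF2 rose 1.81-fold and the receptor gene ERBB2 1.16-fold. The receptor genes EGFR, INSR and ERBB3 fell 1.31-fold, 1.25-fold and 1.19-fold. EGFR had 1081.6, 1476.4 and 1362.7 in shCHROME, against 1800.6, 1456.1 and 1871.9 in EV, so its groups overlapped, and 4 of 16 alternatives lost its call, the highest adjusted p being 0.107. Calls were also lost for ERBB2 in 4 (up to 0.142) and ERBB3 in 1, without EV replicate c (0.0614).

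In the MAPK cascade with its SRF cofactors, 3 of 25 tested genes were called and the median was -0.03. NRAS, one of the RAS switches, fell 1.16-fold, RPS6KA3, an ERK-activated kinase, fell 1.17-fold and MAPK9, a JUN kinase, rose 1.16-fold. Among other immediate early genes 5 of 24 were called, with a median of -0.04. KLF4 fell 1.26-fold, IER5 1.23-fold and KLF10 1.2-fold, while the serum-induced kinase gene SGK1 rose 1.28-fold and ZFP36L1, which promotes decay of AU-rich messages, 1.25-fold. The call of ZFP36L1 lay at an adjusted p of 0.04997 and was lost in 10 of 16 alternatives (up to 0.237). The calls of MAPK9, NRAS and KLF10 were lost in 6 each, of RPS6KA3 and IER5 in 5 each, of SGK1 in 3 and of KLF4 in 2, with adjusted p up to 0.148. In the list of ERK feedback genes 4 of 20 were called and the median was 0.04. The list is broader than its name, as it also holds genes of stress kinase phosphatases and of EGR corepressors. The phosphatase gene DUSP5 had 100.9, 88.91 and 81.85 normalized counts in shCHROME, against 132.7, 159.1 and 161.3 in EV, and fell 1.66-fold (limma adjusted p = 0.00575). DUSP8, a phosphatase of the stress kinases, had 737.9, 825.0 and 746.2 in shCHROME, against 477.2, 454.3 and 546.6 in EV, and rose 1.56-fold (limma adjusted p = 0.000174). DUSP16 rose 1.18-fold and NAB1, a corepressor of EGR proteins, fell 1.18-fold, calls lost in 2 and 7 of 16 alternatives (up to 0.0756 and 0.0844). The groups did not overlap for DUSP5 or DUSP8, and both calls held in all 16.

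**Figure D5:**
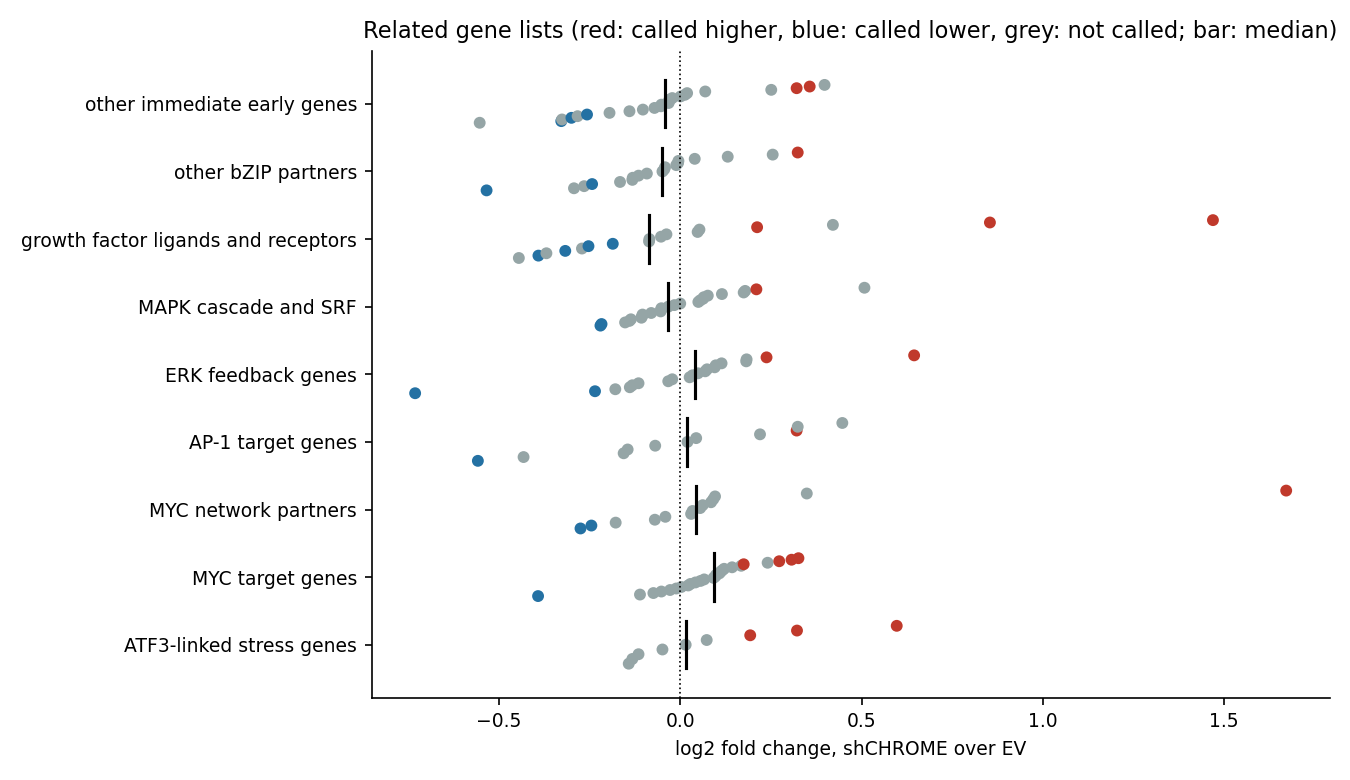
Log2 fold changes of shCHROME over EV (horizontal axis) of the tested genes in 9 lists related to these factors; each point is a gene, red if called higher, blue if called lower and grey if not called, and the bar is the list's median. Medians lie between -0.09 and 0.09, and the points farthest right are MYCN at 1.67 and FGF2 at 1.47.

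Among other leucine zipper partners 3 of 19 were called, with a median of -0.05: MAF fell 1.45-fold, NFE2L2, which controls antioxidant genes, fell 1.18-fold, and CREM, a cyclic AMP response factor, rose 1.25-fold. These calls were lost in 5, 4 and 7 of 16 alternatives (adjusted p up to 0.173). Among AP-1 target genes 2 of 11 were called, with a median of 0.02. HMOX1, the heme-degrading enzyme, had 355.9, 399.1 and 413.5 normalized counts in shCHROME, against 528.5, 637.1 and 557.6 in EV, and fell 1.47-fold (limma adjusted p = 0.00138). IL6 and VIM are listed at 0 in each library.

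In the MYC network 3 of 14 tested genes were called, with a median of 0.04. MYCN, a MYC paralogue, had 31.76, 18.61 and 29.76 normalized counts in shCHROME, against 3.345, 7.313 and 15.93 in EV, with as few as 3 reads in a library, and its log2 fold change was 1.67 (limma adjusted p = 0.0237). The MAX partner genes MXD1 and MXD4, whose proteins oppose MYC, fell 1.19-fold and 1.21-fold. DESeq2 gave MYCN no adjusted p, the filter of 1 CPM in 3 libraries removed it, and its call was lost without shCHROME replicate a, shCHROME replicate c or EV replicate a (adjusted p up to 0.11). The calls of MXD1 and MXD4 were lost in 4 and 8 alternatives (adjusted p up to 0.172). Of 26 MYC targets 4 were higher and 1 lower, with a median of 0.09. ODC1, the first enzyme of polyamine synthesis, rose 1.25-fold, SRM, the next enzyme of that path, 1.24-fold, NME1 1.21-fold and NOP56, of ribosome assembly, 1.13-fold, while the cyclin gene CCND2 fell 1.31-fold. The calls of NME1, SRM and NOP56 were lost in 3, 4 and 7 of 16 alternatives (up to 0.157). Of 9 tested genes of the stress response linked to ATF3, SESN2 rose 1.25-fold, VLDLR 1.51-fold and ASNS 1.14-fold. None was called lower, and the median was 0.02. Log2 fold changes were above 0 for 5 of the 9 and below 0 for 4. VLDLR and ASNS lost the call in 3 and 6 alternatives (up to 0.162).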

How the data were processed

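Reads of 6 HepG2 libraries were aligned and counted on hg19; the submitters' processing notes name STAR 2.5, featureCounts 1.5.2 and DESeq2 (written there as 3.4), while the annotation and strand setting are not given in the sources used here. The authors deposited 1 table with a size-factor-normalized read count (a never-negative signal) per gene and library. Its further deposited columns are a mean, a log2 fold change, a p-value and its adjusted form.

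Here 1288 repeated rows of 24656 were dropped. Every normalized value was a whole number of steps (tolerance 0.01 reads), which gave back whole reads. Groups and replicate letters came from titles. The main test was limma 3.58.1 (trended variance) on log2(value + 1), a scale that understates changes of low genes. Group was the only term, genes were kept by filterByExpr of edgeR 4.0.16, and p-values were adjusted by Benjamini-Hochberg over all genes. Folds are powers of the log2 fold change. As alternatives, recovered reads went into edgeR's quasi-likelihood test and DESeq2 1.42.0. The script for limma was checked on simulated data.

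Members and lists were chosen with earlier results of these data known. Named were all members, up to 6 called genes a list (or its 2 most abundant if none), and the 3 nearest profiles for the 3 most changed members, among genes with a mean of at least 50. A called gene of the AP-1 target list is counted but not reported here by name.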

Additional observations from a re-analysis of the deposited data

How the results depend on the processing

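Across 16 alternatives FOSL2 kept its direction and its call. The count of the 10 genes called lower was 2 with edgeR, DESeq2, DESeq2 size factors, TMM, the CPM filter and a pseudocount of 0.1, and 1 with upper quartile scaling, library totals, no filter beyond 1 read or the replicate block. Leaving out 1 library gave 1 to 3, and none was called higher in any setting. Directions of uncalled genes turned: FOSL1 was -0.00043 with edgeR, -0.07 without shCHROME replicate b and -0.09 without EV replicate c (0.10 at most with 1 library left out). JUNB was 0.02 with library totals, 0.03 without EV replicate b and 0.06 without shCHROME replicate c (-0.11 at the lowest). JUND was 0.02 with library totals and 0.01 without shCHROME replicate c (-0.08 at the lowest). ATF3 was -0.02 without EV replicate c (0.21 at the highest) and MYC -0.07 without shCHROME replicate a (0.08 at the highest). Over all genes, library totals gave 936 higher and 702 lower, and leaving out 1 library gave 245 to 540 higher and 600 to 1056 lower. In the 9 lists 18 genes were higher and 17 lower; library totals gave 8 lower, and leaving out 1 library gave 9 to 13 higher and 6 to 18 lower. The cause of these shifts was not tested, and the fits with 1 library left out also had fewer samples.

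Same-letter deviations from the group means correlated at -0.047, -0.0915 and 0.0444, and shCHROME replicate a correlated best with EV replicate b. These values showed no pairing by replicate letter, but with so few libraries they cannot exclude one. With the replicate block, 349 genes were higher and 764 lower, with 10 and 11 in the lists; FOSL2 had an adjusted p of 0.00214 and IER2 of 0.098. FOSL1 had the fewest reads of the 10, and how much of its error is counting error was not tested.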

Other observations

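The authors' deposited mean differed from the mean of the 6 libraries analysed here by 15.8% for EGR1 (2043.0 against 1763.9 normalized counts), by 8.59% for FOSL1 and by -8.25% for ATF3, and by between -1.77% and 6.44% for the other 7 genes. The libraries over which the authors took that mean are not given in the sources used here.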
